A study of Homo sapiens with 6 samples.

Results

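The interferon regulatory factors (IRFs) and STAT2 are the transcription factors that start the interferon response and carry it out. The 9 genes described here, IRF1, IRF2, IRF3, IRF4, IRF5, IRF7, IRF8, IRF9 and STAT2, were taken by gene name from a table of 58884 genes. All 9 were found once each, and 7 of them passed the filter on low counts, as did 16859 genes in all. They were measured by RNA sequencing in HL-60, an established acute myeloid leukemia line of promyelocyte type with a RAS mutation. EZH2 shRNA cells (3 libraries, numbered 1, 3 and 4) carried a lentiviral short hairpin RNA against EZH2, the histone H3 methyltransferase of Polycomb repressive complex PRC2, and control shRNA cells (3 libraries, numbered 3, 4 and 5) carried a matching scrambled hairpin. Both kinds of cell were stably transduced and puromycin-selected, were off the drug for 2 days, and spent 24 hours in medium with 0.05% serum before RNA was taken. The labels name a single EZH2 hairpin vector and no clones, and they do not tell if each library had its own transduction or culture. The spread behind the p-values is that of these libraries and may be technical.

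Type I interferons bind a receptor on the cell surface, and the JAK kinases at its tail phosphorylate STAT proteins. STAT2 then joins IRF9, which supplies most of the DNA contact, in the complex ISGF3, and ISGF3 switches on genes that carry an interferon-stimulated response element (ISRE). IRF3 is made constantly and waits for phosphorylation by TBK1 or IKBKE, whereas IRF7 is itself an interferon-stimulated gene and amplifies interferon production. IRF1 is induced by interferon gamma through a gamma-activated site (GAS) that binds STAT dimers, and IRF2 binds the same DNA and mostly opposes it. IRF5 acts below Toll-like receptors, IRF8 directs monocyte and dendritic cell development, and IRF4 belongs to lymphocytes and plasma cells.

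Promoter windows of 300 bases, from 250 bases before to 50 bases after a gene's start, were matched in RefSeq (GRCh38.p14) for 6 of the 9 genes; IRF2, IRF3 and IRF7 were not matched. The windows of both ISGF3 subunits among the members and of IRF1 are shown because these genes were lower in EZH2 shRNA cells by different amounts. They lie at chr14:24161015-24161314 (plus strand) for IRF9, chr12:56360058-56360357 (minus strand) for STAT2 and chr5:132490724-132491023 (minus strand) for IRF1. Capitals mark matches to the GAS letters TTCNNNGAA, searched on both strands together with the ISRE letters GAAANNGAAA.
IRF9: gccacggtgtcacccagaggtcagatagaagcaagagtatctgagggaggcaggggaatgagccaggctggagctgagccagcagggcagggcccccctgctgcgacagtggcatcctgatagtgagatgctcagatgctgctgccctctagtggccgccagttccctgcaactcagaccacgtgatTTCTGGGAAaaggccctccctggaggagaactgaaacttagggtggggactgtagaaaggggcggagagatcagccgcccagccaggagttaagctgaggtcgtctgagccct
STAT2: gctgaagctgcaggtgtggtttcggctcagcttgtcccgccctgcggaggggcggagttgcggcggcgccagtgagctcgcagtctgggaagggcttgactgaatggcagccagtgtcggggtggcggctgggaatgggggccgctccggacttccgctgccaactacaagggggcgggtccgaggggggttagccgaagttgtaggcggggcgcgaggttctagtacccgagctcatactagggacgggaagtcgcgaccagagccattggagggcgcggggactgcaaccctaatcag
IRF1: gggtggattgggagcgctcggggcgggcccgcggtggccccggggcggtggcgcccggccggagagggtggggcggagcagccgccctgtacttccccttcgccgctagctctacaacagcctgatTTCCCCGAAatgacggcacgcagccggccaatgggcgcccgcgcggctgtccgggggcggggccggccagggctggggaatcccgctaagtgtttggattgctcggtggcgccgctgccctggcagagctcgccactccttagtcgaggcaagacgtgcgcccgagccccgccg
Positions are counted from the RefSeq start, which for IRF9 is base 24161265, inside the longer gene span of the deposited table given below. IRF9 held the GAS letters TTCTGGGAA at positions -63 to -55 from that start, and IRF1 held TTCCCCGAA at positions -124 to -116. The STAT2 window held no match, nor did any of the windows of IRF4, IRF5 and IRF8. The IRF8 windows were set on RefSeq starts at bases 85902830 and 85903015, inside the deposited gene span, which starts at base 85899162. The sequence around that deposited IRF8 start was not searched. The GAS letters occurred in 7.66% of the 35116 promoter windows of this length, and the ISRE letters, found in none of the 6 matched members, in 3.57%. Counted by gene, as the members are, the shares were 9.38% for GAS and 4.38% for ISRE over 27305 genes. A match describes these letters only.

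Total counts lay between 50809853 and 85074624 in the EZH2 shRNA libraries and between 39717343 and 51622861 in the controls. EZH2 itself averaged 79.98 ± 3.01 CPM (counts scaled to library size) in EZH2 shRNA cells and 149.5 ± 1.61 CPM in control cells (SD, n = 3 each), 53.5% of the control level by the fit (exact two-sided permutation p = 0.1, the smallest that 3 against 3 can give). Of the 8 promyelocyte markers MPO, the most abundant, was at 9420 CPM in EZH2 shRNA and 9800 CPM in control cells, and ELANE was near 0 in both. Of the 7 measured promyelocyte markers 3 were higher (PRTN3 at 2.14, AZU1 at 0.69 and CEBPE at 0.38 on the log2 scale) and 2 lower (MS4A3 at -0.40 and CTSG at -0.22). Summed over 5 eosinophil markers the level was 326 to 349 CPM in EZH2 shRNA and 136 to 138 CPM in control libraries, with all 5 called higher. A marker among these 5, with 3356 counts in EZH2 shRNA and 28 in control libraries, passed the filter on low counts only through the EZH2 shRNA group. Its direction was fixed by that filter, so it adds nothing to the count. Over all genes tested 23.8% were called higher and 22.9% lower. The 8 monocyte markers summed to 50.9 to 56.5 CPM in EZH2 shRNA and 54.2 to 55.6 CPM in control libraries, with CD14 at 7 counts in each group. Behind that near-equal sum FCGR1A was higher, at 20.3 CPM in EZH2 shRNA and 8.23 CPM in control cells. LYZ was lower, at 32.0 CPM in EZH2 shRNA and 46.2 CPM in control cells. CSF1R was higher, at 0.87 CPM in EZH2 shRNA and 0.105 CPM in control cells, but it passed the filter only through the EZH2 shRNA group, which fixed its direction. The 6 lymphoid markers summed to 15.6 to 16.3 CPM in EZH2 shRNA and 13.5 to 14.6 CPM in control libraries, almost all of it NKG7, and 4 of 7 dendritic cell markers were at 0 throughout. The part of these marker differences in the results that follow was not tested.

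All 7 measured members differed between the groups, 5 lower and 2 higher in EZH2 shRNA cells, at an edgeR adjusted p under 0.05. In all 7 the ranges of the groups did not overlap. Such results were common in this comparison, since 46.7% of the 16859 genes tested passed the same threshold, 22.9% lower and 23.8% higher, and 54.9% had groups that did not overlap. IRF9 and IRF7 were called and at least 2-fold lower, a size that 2.18% of all genes reached. In bulk RNA, fewer cells that make a transcript and less transcript per cell cannot be told apart.

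**Figure D1:**
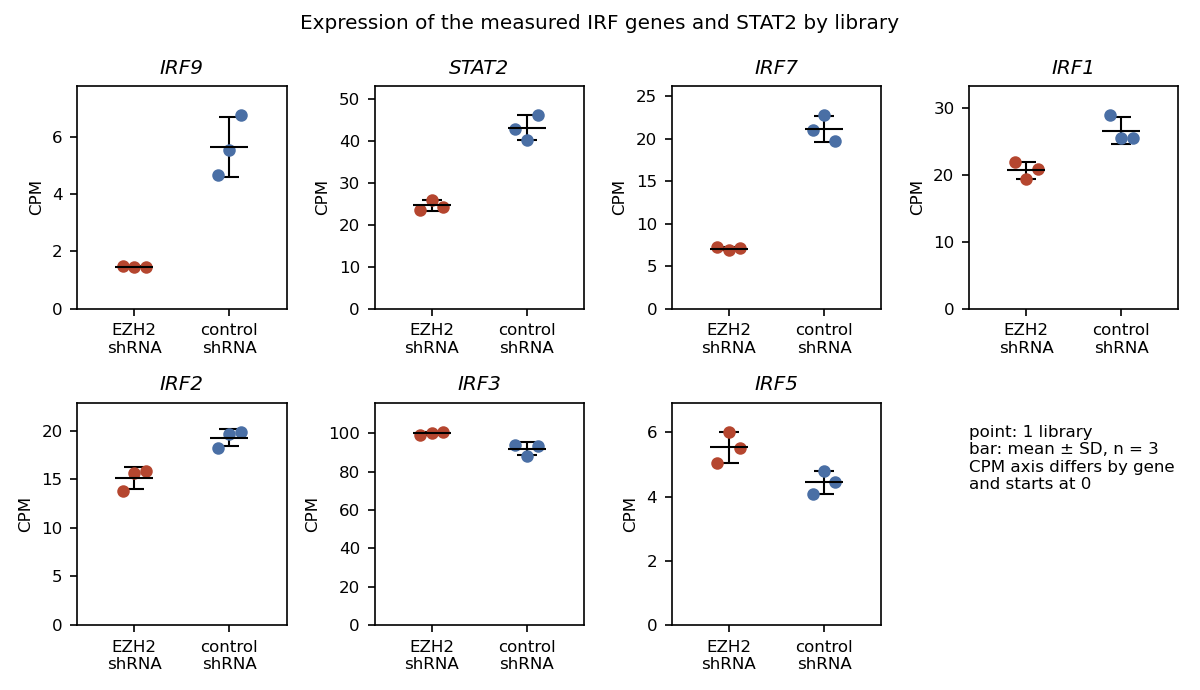
CPM of the 7 measured members in each library (points), with the mean ± SD (n = 3) of each group; each axis starts at 0. The points of EZH2 shRNA cells lie below those of control cells for IRF9, STAT2, IRF7, IRF1 and IRF2 and above them for IRF3 and IRF5.

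IRF9 (ENSG00000213928; GRCh38 chromosome 14, 24161053 to 24166565, plus strand), the DNA-binding subunit of ISGF3, showed the largest difference of the members. Its level was 1.49, 1.46 and 1.46 CPM in EZH2 shRNA libraries 1, 3 and 4, against 4.68, 5.56 and 6.79 CPM in control libraries 3, 4 and 5. The EZH2 shRNA libraries were almost equal, and the lowest control library stood well above all of them. IRF9 had a log2 fold change of -1.95 (SE 0.15, edgeR adjusted p = 2.07e-08), which is 25.8% of the control level. On log2(FPKM + 1), a scale that shrinks differences of weakly expressed genes, the IRF9 difference was -0.84. A same-strand gene model, AL136295.5, covers 98% of the span of IRF9 and was itself at 0.849 CPM in EZH2 shRNA and 0.938 CPM in control cells. Reads that match both models may have been dropped or split, so the absolute level of IRF9 is uncertain.

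STAT2 (ENSG00000170581; chromosome 12, 56341597 to 56360167, minus strand), the STAT that binds IRF9, was lower by less. Its counts came to 23.6, 26.0 and 24.3 CPM in EZH2 shRNA libraries 1, 3 and 4 and to 42.9, 40.2 and 46.2 CPM in control libraries 3, 4 and 5. Every EZH2 shRNA library was far below every control library. STAT2 had a log2 fold change of -0.81 (SE 0.06, edgeR adjusted p = 1.38e-08), 57.2% of control. The ratio of IRF9 to STAT2 transcripts, by FPKM, averaged 0.0976 ± 0.0058 in EZH2 shRNA cells and 0.215 ± 0.032 in control cells (SD, n = 3 each). This ratio restates the unequal fold changes of the 2 transcripts and rests on the IRF9 level, which is uncertain as said above. Protein amounts of the ISGF3 subunits were not measured.

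IRF7 (ENSG00000185507; chromosome 11, 612553 to 615999, minus strand), the interferon-induced amplifier, was at 7.23, 6.87 and 7.08 CPM in EZH2 shRNA libraries 1, 3 and 4, against 21.1, 22.8 and 19.7 CPM in control libraries 3, 4 and 5. Both groups were tight, with a wide gap between them. IRF7 had a log2 fold change of -1.59 (SE 0.08, edgeR adjusted p = 6.72e-11), 33.3% of control. IRF7 lies on a chromosome whose genes were lower as a whole, with a median log2 fold change of -0.27 over 593 genes. With the median of each chromosome removed IRF7 was at -1.32 (edgeR adjusted p = 9.99e-10).

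The surroundings of these genes did not move to the same extent, with 1 exception. Beside the counts that follow, 22.9% of all genes tested were called lower and 23.8% higher. Within 500 kb of IRF7, 24 of 36 other genes with a mean of at least 1 CPM were called lower and 4 higher, with a median log2 fold change of -0.22 and a lowest value of -0.63, in LMNTD2. Around STAT2, 13 of 30 such genes were lower and 8 higher, and the lowest, NACA, was at -0.40. Around IRF9, 12 of 28 were lower and 2 higher. There the lowest was REC8, a meiotic cohesin subunit that starts 5288 bases past the end of IRF9 on the same strand. REC8 averaged 1.01 CPM in EZH2 shRNA and 3.86 CPM in control cells, a log2 fold change of -1.92, almost that of IRF9. On the other side RNF31, a ubiquitin ligase subunit whose end lies 393 bases before IRF9 on the same strand, was at -0.23 and did not pass the test.

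**Figure D2:**
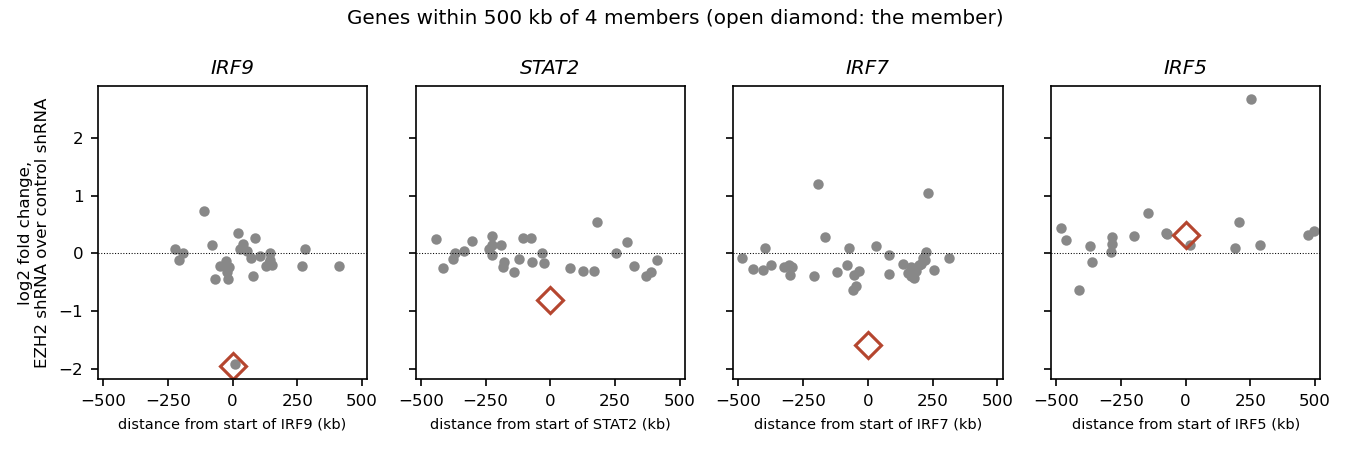
Log2 fold change (EZH2 shRNA over control shRNA) of genes with a mean of at least 1 CPM within 500 kb of IRF9, STAT2, IRF7 and IRF5, by distance in kb between gene starts; open diamonds are the members. IRF9, STAT2 and IRF7 lie below the other genes of their windows, apart from REC8 inside the IRF9 diamond, whereas IRF5 lies among its neighbours.

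IRF1 and IRF2, which compete for the same DNA element with mostly opposite effects, were lower by similar amounts. IRF1 (chromosome 5) had 21.9, 19.3 and 20.8 CPM in EZH2 shRNA libraries 1, 3 and 4 and 28.9, 25.4 and 25.4 CPM in control libraries 3, 4 and 5. IRF1 stood at a log2 fold change of -0.36 (SE 0.07, edgeR adjusted p = 0.00029). IRF2 (chromosome 4) had 13.8, 15.6 and 15.9 CPM in EZH2 shRNA libraries and 18.3, 19.7 and 19.9 CPM in control libraries, a log2 fold change of -0.35 (SE 0.07, edgeR adjusted p = 0.000633). For both genes the gap between the groups was only slightly wider than the spread within them. The ratio of IRF1 to IRF2 by FPKM was 0.543 ± 0.072 in EZH2 shRNA cells and 0.546 ± 0.068 in control cells (SD, n = 3 each), a difference far within the spread of libraries. C5orf56 runs on the opposite strand over 77.4% of IRF1 at 1.26 CPM in EZH2 shRNA and 2.01 CPM in control cells, and the strand setting of the counting is not given in the sources used here.

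IRF3 and IRF5 were slightly higher in EZH2 shRNA cells, and each call was lost in some settings. IRF3 (chromosome 19), the constitutive sensor-activated factor, had 99.0, 99.9 and 101 CPM in EZH2 shRNA libraries 1, 3 and 4 and 94.1, 87.9 and 93.5 CPM in control libraries 3, 4 and 5. The groups lay close together without crossing, with a log2 fold change of 0.12 (SE 0.04, edgeR adjusted p = 0.0205). For IRF3 the edgeR adjusted p was 0.0817 without EZH2 shRNA library 4, 0.113 without control library 4 and 0.323 with chromosome medians removed (log2 fold change 0.05). IRF5 (chromosome 7), the Toll-like receptor factor, had 5.06, 6.03 and 5.51 CPM in EZH2 shRNA libraries and 4.08, 4.80 and 4.45 CPM in control libraries, a log2 fold change of 0.31 (SE 0.11, edgeR adjusted p = 0.0308). For IRF5 the edgeR adjusted p was 0.121 and 0.0727 without EZH2 shRNA libraries 3 and 4, and 0.127 and 0.0715 without control libraries 3 and 5. Its neighbourhood was higher too, with 11 of 19 genes within 500 kb called higher, against 23.8% over all genes tested. The median log2 fold change of these 19 genes was 0.28. BCL2L12 overlaps 11.6% of IRF3 on the opposite strand, at 58.0 CPM in EZH2 shRNA and 52.6 CPM in control cells.

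The last 2 members were silent or nearly so in both groups. IRF8, the monocyte and dendritic cell factor, had 0 counts in all 6 libraries. A floor of 3 counts, chosen here, corresponds to between 0.0353 and 0.0759 CPM per library. IRF4, the lymphoid factor, had 1, 0 and 6 counts in EZH2 shRNA libraries 1, 3 and 4 and 3, 2 and 0 in control libraries 3, 4 and 5. The depth-adjusted ratio of its 7 counts in EZH2 shRNA to 5 in control cells was 0.997, with an exact 95% interval of 0.272 to 3.98 that covers counting error only. A change of IRF4 within that interval was not detectable at this depth.

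The interferon-loop factors were lower relative to IRF3, which interferon does not induce. The mean log2 fold change of IRF9, STAT2 and IRF7 was -1.45, against 0.12 for IRF3 (IRF4, the other IRF taken as not induced, had too few counts), a difference of -1.57. Library by library, the mean log2 CPM of IRF9, STAT2 and IRF7 minus that of IRF3 was -3.95, -3.95 and -3.98 in EZH2 shRNA libraries 1, 3 and 4 and -2.54, -2.35 and -2.35 in control libraries 3, 4 and 5. No library came near the other group. With IRF2 and IRF5, which interferon induces only in some cells, added to IRF3, the difference was -1.48. No test is attached to this contrast, because the genes in it were chosen with earlier results known. By FPKM the ratio of IRF7 to IRF3 was 0.102 ± 0.003 in EZH2 shRNA cells and 0.334 ± 0.036 in control cells (SD, n = 3 each).

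The order of the members by FPKM, which scales for gene length, differed with these shifts. In EZH2 shRNA cells IRF3 was at 26.2 FPKM, IRF2 at 4.88, STAT2 at 3.94, IRF7 at 2.67, IRF1 at 2.63, IRF5 at 1.21 and IRF9 at 0.384. The ranges of IRF7 (2.60 to 2.73 FPKM) and IRF1 (2.47 to 2.78 FPKM) overlapped, so that pair had no order. In control cells IRF3 was at 24.1 FPKM, IRF7 at 8.05, STAT2 at 6.94, IRF2 at 6.27, IRF1 at 3.41, IRF9 at 1.49 and IRF5 at 0.975. The ranges of STAT2 (6.47 to 7.42 FPKM), IRF7 (7.48 to 8.65) and IRF2 (5.95 to 6.46) all but touched, so their order was less firm. IRF9 was below IRF5 in every EZH2 shRNA library and above it in every control library, and IRF7 was below IRF2 in every EZH2 shRNA library and above it in every control library.

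**Figure D3:**
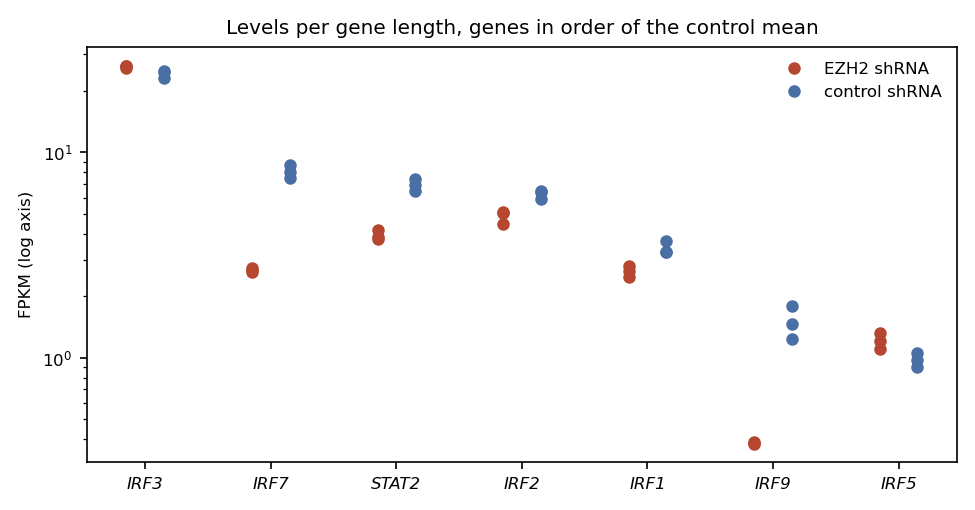
FPKM of the 7 measured members on a log axis, 1 point per library, with EZH2 shRNA left of control shRNA for each gene. IRF3 stays between 23.1 and 26.4 FPKM in all libraries, while IRF9 sits between 0.382 and 0.388 FPKM in EZH2 shRNA cells and between 1.23 and 1.78 FPKM in control cells.

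Upstream of the members, list medians lay near 0. The median log2 fold change was -0.09 for receptor chains, 0.06 for JAK kinases and -0.08 for kinases and adaptors that activate IRFs. None of 22 interferon genes passed the filter, so none was tested singly. Over all of them there were 3 counts in EZH2 shRNA and 17 in control libraries, unadjusted for depth. IFNB1 held 3 of these in EZH2 shRNA and 11 in control libraries. The difference in this total was not tested. Of 5 measured interferon receptor chains 2 were lower and 0 higher, IFNGR1 at -0.36 and IFNAR1 at -0.27 (log2, edgeR adjusted p = 1.85e-05 and 0.000208), while IFNAR2 (-0.05) and IFNGR2 (-0.09) did not pass. Of 3 measured JAK kinases JAK1 was lower by a log2 fold change of -0.11 (edgeR adjusted p = 0.0326), and the count was 0 without EZH2 shRNA library 4, control library 3 or control library 5 and 2 without EZH2 shRNA library 1. TYK2, the kinase on IFNAR1, was at 0.10 (edgeR adjusted p = 0.0888). Over all genes tested 23.8% were called higher and 22.9% lower. Beside that, the kinases and adaptors that activate IRFs went both ways, 5 of 16 higher and 6 lower. Among them TBKBP1, an adaptor of TBK1, was at 0.79 and TRAF3 at 0.40, against -0.43 for IRAK4 and -0.44 for CHUK (log2, all edgeR adjusted p under 0.05).

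Among the other STATs 3 of 5 measured genes were higher and 2 lower. STAT5A, which carries cytokine signals in blood cells, averaged 69.9 ± 2.32 CPM in EZH2 shRNA and 32.5 ± 1.92 CPM in control cells (SD, n = 3 each; log2 fold change 1.10, edgeR adjusted p = 4.33e-11), and its neighbour STAT5B was at 0.49. STAT6, the interleukin 4 STAT, was at -0.24. STAT5A and STAT5B lie on chromosome 17, where the median log2 fold change was 0.15 over 638 genes. Of 15 measured IRF partners and corepressors 5 were higher and 6 lower, against 23.8% higher and 22.9% lower over all genes tested. In this list the IRF2 corepressor IRF2BP2 was at 0.43, the repressor ETV6 at 0.44, the ubiquitin ligase TRIM21 at -0.48 and the importin KPNA1 at -0.16. That list had 11 calls in all, 7 without control library 3 and 6 without control library 5.

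Downstream, 34 of 35 measured ISGF3 target genes were called lower and 0 higher, against 22.9% lower and 23.8% higher over all genes tested. Their median log2 fold change was -1.43, against 0.01 over all genes tested. The exception, MX1, was at -0.86 from 0.192 CPM in EZH2 shRNA and 0.346 CPM in control cells (edgeR adjusted p = 0.1). Some of the 34 passed the filter on low counts only through the control libraries, which fixed their direction, so they carry no support. The count of 34 and the median of -1.43 still include them. Among them were OAS2, with 6 counts in EZH2 shRNA and 185 in control libraries, IFI44, with 10 and 150, and RSAD2, with 27 and 99. EIF2AK2, the double-stranded RNA kinase, averaged 40.3 CPM in EZH2 shRNA and 87.7 CPM in control cells, and IFIT2 averaged 3.69 CPM in EZH2 shRNA and 46.4 CPM in control cells. Of 19 measured genes linked to IRF1 and interferon gamma, 15 were lower and 2 higher, with a median of -0.50. WARS, a tRNA synthetase induced by interferon gamma, was at -0.65, PSMB9 at -1.03 and the chemokine CXCL11 at -3.49 (log2). CXCL11, with 28 counts in EZH2 shRNA and 228 in control libraries, passed the filter on low counts only through the control group. So did APOL1, with 21 counts in EZH2 shRNA and 181 in control libraries. The direction of both was fixed by that filter, so they add nothing to the count of 15. The 2 of these 19 genes that were higher were CIITA, the activator of MHC class II genes, at 2.14 and the adhesion molecule ICAM1 at 0.60. CIITA, with 101 counts in EZH2 shRNA and 16 in control libraries, passed the filter only through the EZH2 shRNA group, which fixed its direction. Of 13 measured genes listed as negative regulators of interferon signalling 7 were lower and 2 higher. The largest falls were in UBE2L6 (-1.91), ISG15 (-1.65) and USP18 (-1.14), which are themselves induced by interferon, and PIAS3 was at -0.46. ISG15 and USP18 are also in the list of ISGF3 target genes, so their calls were already counted among the 34.

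**Figure D4:**
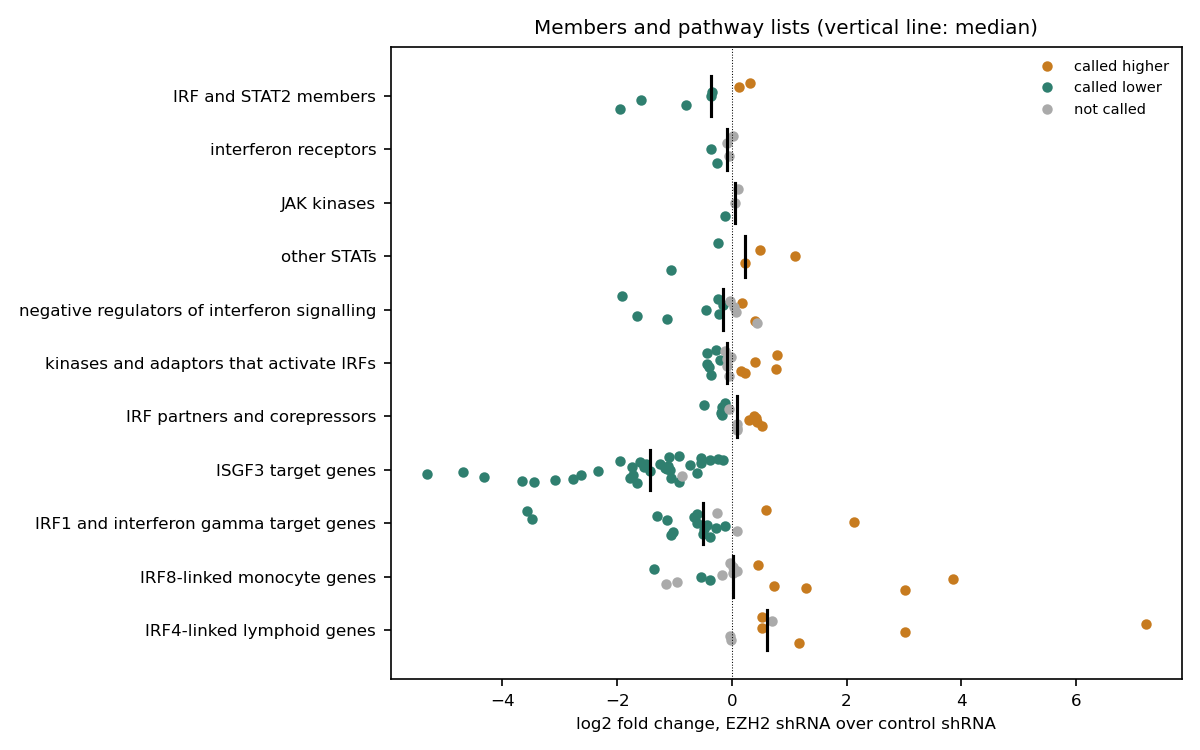
Log2 fold change (EZH2 shRNA over control shRNA) of the measured members and of each measured gene of 10 pathway lists, coloured by the edgeR call; vertical lines are medians. ISGF3 target genes lie almost wholly on the lower side (median -1.43), whereas receptors and JAK kinases lie close to 0.

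For the last 2 lists too, the share over all genes tested was 23.8% higher and 22.9% lower. Of 15 measured monocyte genes linked to IRF8, which was at 0 counts, 5 were higher and 3 lower, with a median of 0.02. Of these CSF1R, with 162 counts in EZH2 shRNA and 14 in control libraries, passed the filter on low counts only through the EZH2 shRNA group. CST3, a protease inhibitor, averaged 11.0 CPM in EZH2 shRNA and 0.762 CPM in control cells (log2 fold change 3.85), FCGR1A, a marker named above, was at 1.30, ID2 at -1.35 and LYZ at -0.53. Of 8 measured lymphoid genes linked to IRF4, 5 were called higher and 0 lower, with a median log2 fold change of 0.61, and 3 were called without EZH2 shRNA library 1 or 4. For 3 of these 5 the direction was fixed by the filter on low counts, which they passed through the EZH2 shRNA libraries, so the count supports nothing. They were IKZF3, with 1126 counts in EZH2 shRNA and 5 in control libraries, CD40, with 80 and 7 in EZH2 shRNA and control libraries, and PRDM1, with 69 and 21. MYC was at 0.52 and BATF at 0.53 (log2).

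The genes with profiles most like the members over the 6 libraries, by Euclidean distance between centred log2 CPM among 13418 other genes, were partly interferon-stimulated genes. Nearest to IRF9 were TRIM22 (distance 0.307, log2 fold change -1.95), REC8 (0.349) and the long non-coding RNA OVAAL (0.388, -1.85). Nearest to IRF7 were SAMD9L (0.169, -1.61), the deubiquitinase gene USP44 (0.169, -1.60) and LINC01694 (0.171, -1.50). Nearest to STAT2 were EHBP1L1, RIF1 and GLG1 (distances 0.07, 0.0883 and 0.113), with log2 fold changes of -0.79, -0.79 and -0.75. TRIM22 and SAMD9L are interferon-stimulated genes. With 6 libraries in 2 groups, a small distance mainly means a group difference of like size.

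**Figure D5:**
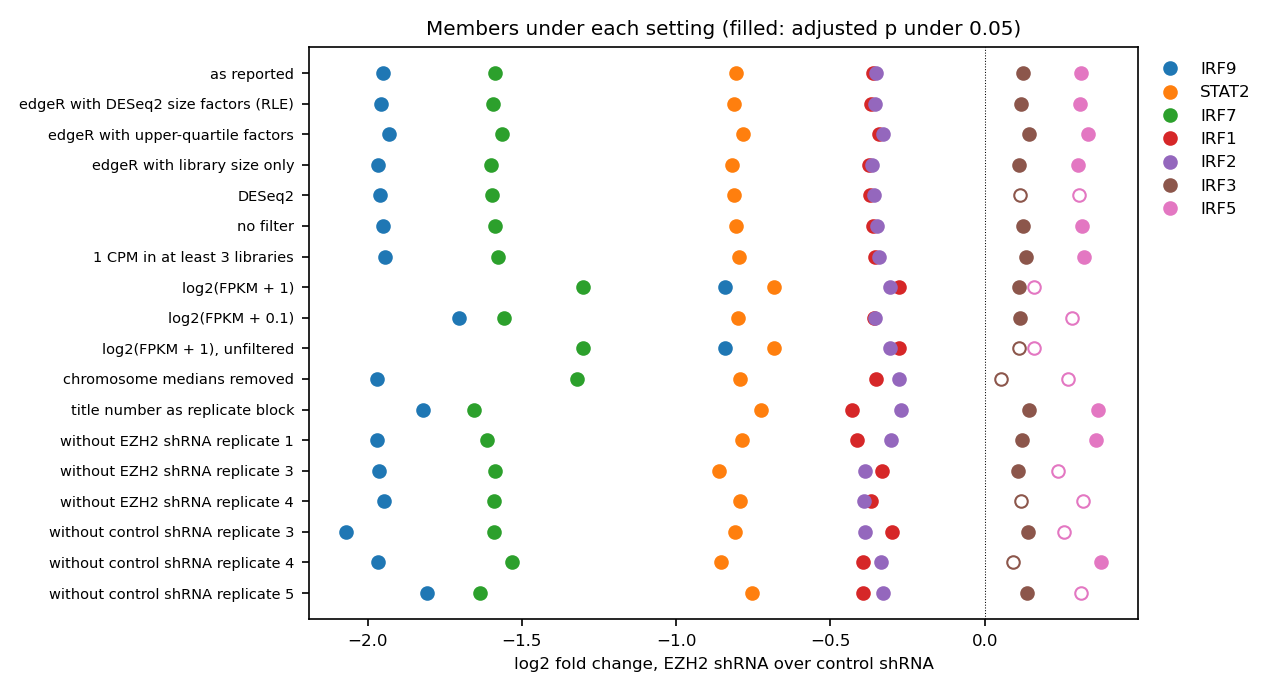
Log2 fold change (EZH2 shRNA over control shRNA) of the 7 measured members under the reported fit and 17 other settings; filled points passed the adjusted p threshold of 0.05. IRF9, STAT2, IRF7, IRF1 and IRF2 are filled in every setting, whereas IRF3 is open in 5 and IRF5 in 9.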

How the data were processed

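Polyadenylated RNA was sequenced as single reads of 50 bases from a stranded kit, per the labels' protocols. The authors deposited raw counts per gene, whole numbers without normalization, and FPKM values. Tools listed in the submitters' processing notes, with no roles, are DESeq2 1.24.0, Picard 2.18.24, STAR 2.5.2b and R 3.6.1, and the build is GRCh38. How reads were counted, with which annotation and strand setting, is not given in the sources used here. For 29060 of 29060 genes with counts, the deposited FPKM were the counts divided by DESeq2 size factors and a constant per gene, within a relative tolerance of 0.001, so they are no independent measurement.

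Computed here were CPM with TMM factors and the edgeR 4.0.16 quasi-likelihood test (R 4.3.3, robust, group as the only term) on 16859 genes kept by filterByExpr, with Benjamini-Hochberg adjustment over all of them calling genes under 0.05. Fold changes (log2) put EZH2 shRNA over control, with the SE derived from the F statistic. Pairs of libraries of a group differed beyond sampling noise (chi-square per degree of freedom from 3.02 to 15.9), so all 6 were used. Chromosome medians were taken over genes whose log2 CPM averaged more than 2. The scripts were tested on simulated data. DESeq2 1.42.0 and limma 3.58.1 served as alternatives.

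The members and lists were chosen with earlier results of these data known. Named were all 9 members, EZH2, up to 4 genes per list with the smallest p, the 3 genes nearest in profile to IRF9, STAT2 and IRF7, and genes that overlap members. Genes within 500 kb of members and marker genes beyond the lists' sums were named after their values were seen. So were MX1, OAS2, IFI44, RSAD2, APOL1, CIITA, ICAM1 and IFNB1. Some genes that the rule names are not reported here.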

Additional observations from a re-analysis of the deposited data

How the results depend on the processing

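Across 17 alternatives each, IRF9, STAT2, IRF7, IRF1, IRF2 and EZH2 kept their direction and their side of the threshold, with log2 fold changes from -2.07 to -0.84 for IRF9, -0.86 to -0.68 for STAT2, -1.66 to -1.30 for IRF7, -0.43 to -0.28 for IRF1 and -0.39 to -0.27 for IRF2. IRF3 lost its call in 5 alternatives (largest adjusted p 0.323) and IRF5 in 9 (largest 0.127), both without a change of direction, and DESeq2 gave 0.0504 and 0.0833. The difference between IRF9, STAT2 and IRF7 and IRF3, reported as -1.57, was -1.05 on log2(FPKM + 1) with or without the filter, -1.47 on log2(FPKM + 0.1), -1.42 with chromosome medians removed and -1.48 with IRF2 and IRF5 added to IRF3. The added pseudocount shrinks weakly expressed genes by construction. Title numbers 3 and 4 occur in both groups but are not said to pair libraries. Deviations of same-numbered libraries correlated at 0.107 and 0.119 over genes. With the number as a replicate block the difference was -1.54, all 7 members were called, and EZH2 kept its call. The calls among IRF partners and corepressors numbered 11 as reported, 6 on log2(FPKM + 1) and log2(FPKM + 0.1), 4 without the filter on log2(FPKM + 1) and 7 with the block. The JAK kinase list had 1 call as reported and 0 on unfiltered log2(FPKM + 1), and the IRF4-linked list 5 as reported and 3 in 3 FPKM fits and with a filter of 1 CPM in 3 libraries. Depth limits IRF4 and IRF8, whose counts allow no call.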
